A study of Rattus norvegicus with 8 samples.

Results

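The creatine kinase and adenylate energy shuttle was examined through 9 genes in left atrial and left ventricular muscle of the rat heart. The genes encode the creatine kinases (Ckm, Ckmt2 and Ckb), the creatine transporter (Slc6a8), the enzymes of creatine synthesis (Gatm and Gamt), adenylate kinases (Ak1 and Ak3) and an AMP deaminase (Ampd3), and every probe set annotated to one of these symbols was taken. Of the 9 genes, 8 were read by 11 of the 31042 probe sets on the array. No probe set was named for Ak1, the main cytosolic adenylate kinase of muscle, which was not analysed here. The tissues were the left atrial appendage, in 4 pools, and the left ventricular free wall, also in 4 pools, of 13 normal male Sprague Dawley rats weighing 225 to 275 g, whose age was not given. The side of the heart is given by the study's methods and not by the labels. Each pool was read on 1 array. No source used here says how the animals were shared out among the pools, so the spread between arrays is a spread between pools. All values are log2 signal intensities as deposited by the authors, and differences are left atrium minus left ventricle with a standard error (SE) from limma, a linear model that borrows information on the spread across probe sets.

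Creatine kinases move a phosphate group between ATP and creatine. The mitochondrial enzyme charges creatine where ATP is made, and the cytosolic enzymes use phosphocreatine to restore ATP at the myofibrils and ion pumps. Heart muscle does not make enough creatine of its own and takes it up from the blood through Slc6a8, while Gatm and Gamt catalyse the successive steps of its synthesis, mainly in kidney and liver. Adenylate kinases convert ADP to ATP and AMP, and AMP deaminase turns AMP into IMP, from which the purine nucleotide cycle rebuilds AMP.

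The chamber identity of the arrays matched their labels. Of the atrial muscle markers all 7 measured were higher in the atria, and of the ventricular muscle markers all 8 were lower. The summed intensity of the ventricular markers ranged from 865 to 4737 over the atrial arrays, against 23914 to 25331 over the ventricular arrays, and atrial replicates 1 and 4 carried most of the ventricular myosin light chain signal on the atrial side, with Myl2 at 10.48 and 11.30 against 4.32 and 6.82 in replicates 2 and 3. Other cell types also differed between the tissues. Fibroblast markers were higher in the atria in 7 of 8 cases (summed intensity 13848 to 16084 in the atria and 10951 to 12588 in the ventricles), mesothelial markers in 5 of 6 (1067 to 2016 against 173 to 198, with Wt1 lower) and adipocyte markers in 4 of 7 (1700 to 5422 against 2340 to 2551). All 7 adipocyte markers had their highest atrial value in replicate 4, with Plin1 at 9.03 against 4.37, 6.75 and 5.90 in replicates 1 to 3. Fabp4, which was not called, was the brightest of them (means of 10.91 in the atria and 11.10 in the ventricles) and weighs most in the sum. Smooth muscle markers were lower in the atria in 7 of 8 cases (2395 to 2747 against 3422 to 3546) and endothelial markers in 5 of 7 (2542 to 2677 against 3361 to 3768, with Vwf higher by 0.93). Of 8 leukocyte markers 1 was higher and 3 lower (890 to 1188 against 1143 to 1395), and of 8 markers of neurons and Schwann cells 3 were higher and 1 lower (155 to 231 against 134 to 148). Of 14 cardiomyocyte markers 3 were higher, 6 lower and 5 not called, with a sum of 68723 to 73195 in the atria and 73903 to 75571 in the ventricles. Desmin (Des) stands on both the cardiomyocyte and the smooth muscle lists. In whole tissue, fewer cells of a type and less RNA per cell cannot be told apart, and the part of these cell types in the results that follow was not tested.

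The muscle creatine kinases, the creatine transporter and the AMP deaminase were lower in the atria. Ampd3 fell to 46.1% of its ventricular intensity, Slc6a8 to 58.2%, Ckmt2 to 64.5% and Ckm to 79.5%, while Ckb did not pass the test and Gamt was 1.18 fold higher. At an adjusted p under 0.05 from limma, 5 of the 11 probe sets were lower in the atria, 2 were higher and 4 did not pass. Over all probe sets on the array 20.1% were lower and 18.6% were higher by the same rule. With each gene taken at its brightest probe set, 4 of 8 genes were lower and 1 was higher, against 22.5% and 22.5% of all 14217 genes. The atrial and the ventricular arrays did not overlap at 7 of the 11 probe sets, where 37.0% of all probe sets had no overlap. Stricter thresholds were taken from the study, which applied them to the SAM test, and were set here on the limma adjusted p (under 0.0001, with at least 1.8 fold). Only Ampd3 met them, as did 1.87% of all probe sets in that direction. The SDs among pools at the 11 probe sets were between 0.03 and 0.13.

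**Figure D1:**
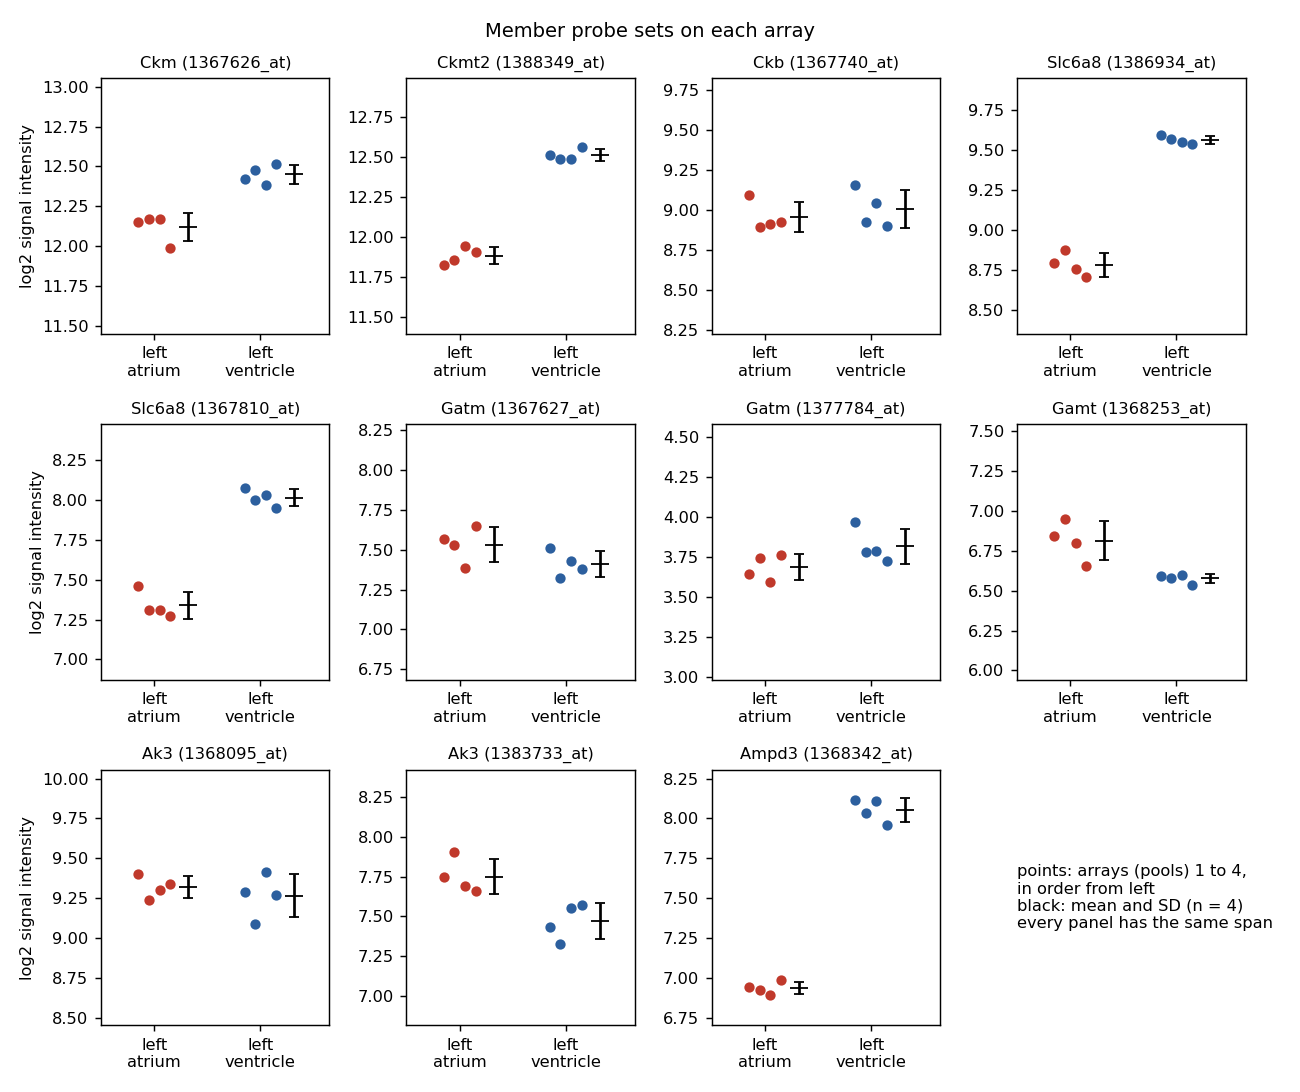
Log2 signal intensity of the 11 member probe sets on each array, left atrium in red and left ventricle in blue, with the mean and SD of 4 arrays in black and every panel on the same span. The arrays of the tissues stand apart at both Slc6a8 probe sets, at Ckmt2, Ckm and Ampd3, with the atrium lower, and overlap at Ckb, at both Gatm probe sets and at Ak3 1368095_at.

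The creatine kinases differed in their measured change. Ckmt2, the sarcomeric mitochondrial creatine kinase, read 11.82, 11.85, 11.94 and 11.91 on the atrial arrays, against 12.51, 12.49, 12.49 and 12.57 on the ventricular arrays. Every atrial array was lower than every ventricular array, by at least 0.55. The means were 11.88 ± 0.05 in the atria and 12.51 ± 0.04 in the ventricles (SD, n = 4 each), a difference of -0.63 (SE 0.06, adjusted p = 1e-05 from limma).

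Ckm, the cytosolic creatine kinase bound in part to the M-band of the sarcomere, read 12.15, 12.17, 12.17 and 11.99 in the atria, against 12.42, 12.48, 12.39 and 12.52 in the ventricles. The groups again did not overlap, although atrial replicate 4 stood below the other atrial arrays. The difference was -0.33 (SE 0.07, adjusted p = 0.0024 from limma), and it was -0.29 (adjusted p = 0.0039) without atrial replicate 4. Ckm and Ckmt2 both read near the upper end of the intensities, since only 82 probe sets had a mean above a log2 of 12 and the highest value on any array was 13.77.

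Ckb, the brain-type cytosolic enzyme, which smooth muscle and neurons also express, read 9.10, 8.89, 8.91 and 8.92 in the atria, against 9.16, 8.93, 9.04 and 8.90 in the ventricles. The arrays of the tissues were mixed. The difference was -0.05, with a 95% interval from -0.22 to 0.12 (adjusted p = 0.62 from limma), so a fall of the size measured for Ckm or Ckmt2 lies outside the interval. Smooth muscle markers had a median difference of -0.54 and markers of neurons and Schwann cells one of 0.20, and their part in the Ckb value was not tested. Ckmt1, the ubiquitous mitochondrial creatine kinase, had means of 3.40 ± 0.13 in the atria and 3.70 ± 0.11 in the ventricles (SD, n = 4 each) and passed the test at -0.30 (limma adjusted p = 0.018). These means lay under a log2 of 4, where 37.8% of all probe sets have their mean, so the size of that difference is not set.

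The promoter sequences of Ckm, Ckmt2 and Slc6a8, all lower in the atria, are shown beside that of Ckb, which did not pass the test. They come from the RefSeq promoter table for build GRCr8, which held 7 of the 9 members (Ak1 and Ampd3 had no entry), and each has 300 bases, 250 before and 50 after the start given there. The windows are chr1:88189211-88189510 on the plus strand for Ckm, chr2:24845462-24845761 on the minus strand for Ckmt2, chrX:156535767-156536066 on the plus strand for Slc6a8 and chr6:136553415-136553714 on the minus strand for Ckb. Capitals mark every match, on either strand, to the E box CANNTG, the TATA box TATANA, the CCAAT box CCAAT, the estrogen-related receptor site AAGGTCA, the CArG box or the MEF2 site.
Ckm: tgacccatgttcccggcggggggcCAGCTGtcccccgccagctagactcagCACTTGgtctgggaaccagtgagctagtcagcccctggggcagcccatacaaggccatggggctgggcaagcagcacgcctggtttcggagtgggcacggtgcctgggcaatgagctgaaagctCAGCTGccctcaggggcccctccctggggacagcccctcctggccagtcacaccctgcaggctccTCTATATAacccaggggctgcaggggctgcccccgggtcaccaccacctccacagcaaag
Ckmt2: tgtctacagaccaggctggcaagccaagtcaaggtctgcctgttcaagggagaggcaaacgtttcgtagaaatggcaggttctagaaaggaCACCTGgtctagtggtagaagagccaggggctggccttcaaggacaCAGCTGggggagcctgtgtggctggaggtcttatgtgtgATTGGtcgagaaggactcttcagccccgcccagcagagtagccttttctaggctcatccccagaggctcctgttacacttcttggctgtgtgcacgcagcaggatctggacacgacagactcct
Slc6a8: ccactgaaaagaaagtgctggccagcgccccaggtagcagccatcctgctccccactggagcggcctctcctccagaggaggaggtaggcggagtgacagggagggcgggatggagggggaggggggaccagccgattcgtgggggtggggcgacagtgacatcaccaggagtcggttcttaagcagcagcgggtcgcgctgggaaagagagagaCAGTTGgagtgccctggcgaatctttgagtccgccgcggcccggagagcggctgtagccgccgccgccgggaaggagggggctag
Ckb: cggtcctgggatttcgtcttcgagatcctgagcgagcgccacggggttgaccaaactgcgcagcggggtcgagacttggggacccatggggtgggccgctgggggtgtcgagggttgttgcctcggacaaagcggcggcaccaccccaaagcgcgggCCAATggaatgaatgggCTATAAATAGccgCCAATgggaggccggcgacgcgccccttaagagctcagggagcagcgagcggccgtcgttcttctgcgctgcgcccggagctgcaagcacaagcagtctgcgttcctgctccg

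The E box, the site of basic helix-loop-helix factors, was found at 3 places in Ckm, at 2 in Ckmt2 and at 1 in Slc6a8, and at 0 in Ckb. It did not follow the direction of the members, since Gatm and Ak3, neither of them lower in the atria, also held 1 each, Gamt held 0, and Ampd3 had no entry. An E box is common, as 71.6% of 27457 promoters of the same length held at least 1. Ckm held 2 overlapping TATA box matches, 1 on each strand, and Ckb held 1, inside a match to the MEF2 site. Of all promoters 26.2% had a TATA box match and 3.37% a MEF2 match. A CCAAT box was found at 1 place in Ckmt2 and at 2 places in Ckb, and in 37.7% of all promoters. None of the 4 windows held the estrogen-related receptor site (4.37% of all promoters) or a CArG box (1.64%). These matches describe letters in the windows and not bound sites.

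Whether one creatine kinase shifted against another was asked within each array, from the difference of their log2 values. The level of such a difference depends on the probes, so only its change between the tissues is read. Ckb minus Ckmt2 was -2.73, -2.96, -3.03 and -2.98 in the atria, against -3.36, -3.56, -3.45 and -3.66 in the ventricles. Ckb was thus higher relative to Ckmt2 on every atrial array, by 0.58 on average or 1.5 fold (two-sided exact permutation test, p = 0.0286, the smallest that 4 against 4 arrays allow, and adjusted p = 0.0381 over the 4 pairs compared). Ckm minus Ckmt2 was 0.33, 0.32, 0.23 and 0.08 in the atria, against -0.09, -0.01, -0.10 and -0.05 in the ventricles. The signal of the mitochondrial enzyme was thus lower relative to that of the cytosolic muscle enzyme on every atrial array, by 0.30 (exact permutation adjusted p = 0.0381). Both probe sets read near the upper end of the intensities, which limits how the sizes of their differences can be compared. Ckb minus Ckm shifted by 0.28, and its arrays overlapped (exact permutation p = 0.0571). With any 1 array left out the smallest p of this test is 0.0571, so these shifts could not be called. The planned pair of Ak1 and Ak3 could not be compared.

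**Figure D2:**
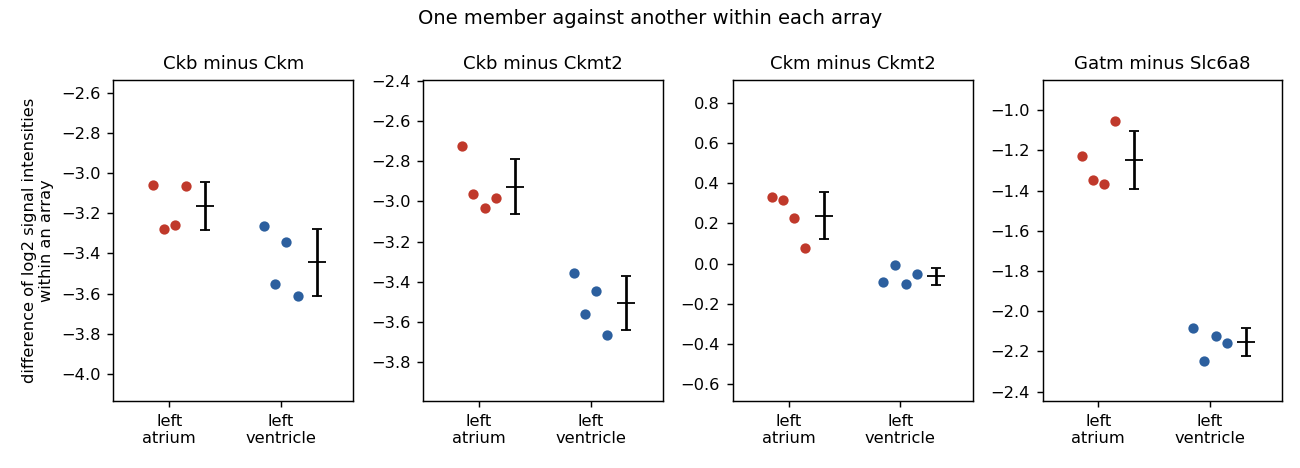
Difference of the log2 signal intensities of 2 members within each array, left atrium in red and left ventricle in blue, with the mean and SD of 4 arrays in black. The arrays of the tissues stand apart for Ckb minus Ckmt2, Ckm minus Ckmt2 and Gatm minus Slc6a8 and overlap for Ckb minus Ckm, and only the change between tissues can be read.

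Of the member transcripts for creatine uptake and synthesis, Slc6a8 was lower in the atria, Gatm was not called and Gamt was higher. Slc6a8, the sodium- and chloride-dependent creatine transporter, was read by a pair of probe sets that gave the same direction. The brighter one, 1386934_at, read 8.79, 8.88, 8.75 and 8.70 in the atria, against 9.59, 9.57, 9.55 and 9.54 in the ventricles. The other, 1367810_at, read 7.46, 7.31, 7.31 and 7.27 in the atria, against 7.95 to 8.08 over the ventricular arrays. Both sets of atrial arrays lay wholly below the ventricular arrays. The differences were -0.78 (SE 0.06) and -0.68 (SE 0.06), with adjusted p values from limma of 3e-06 and 1.5e-05.

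Gatm, which makes guanidinoacetate in the first step of creatine synthesis, read 7.56, 7.53, 7.39 and 7.65 in the atria, against 7.51, 7.32, 7.43 and 7.38 in the ventricles. The groups overlapped, and the difference of 0.12 (95% interval from -0.04 to 0.28, adjusted p = 0.21 from limma) did not pass the test. Its dim probe set, 1377784_at, had means of 3.69 in the atria and 3.82 in the ventricles, both under 4, and was not called (adjusted p = 0.18). Gamt, which methylates guanidinoacetate to creatine, read 6.85, 6.95, 6.80 and 6.66 in the atria, against 6.59, 6.58, 6.60 and 6.53 in the ventricles. The lowest atrial array stood only 0.06 above the highest ventricular array. The difference was 0.24 (SE 0.07, adjusted p = 0.022 from limma), and the call was lost with quantile normalization between arrays (0.16, adjusted p = 0.0658) and without atrial replicate 1 (0.23, 0.0504), atrial replicate 2 (0.19, 0.0602) or ventricular replicate 4 (0.22, 0.0543).

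Gatm shifted against Slc6a8 by 0.90, or 1.87 fold. Gatm minus Slc6a8 was -1.23, -1.35, -1.37 and -1.05 in the atria, against -2.09, -2.25, -2.12 and -2.16 in the ventricles (exact permutation p = 0.0286, adjusted p = 0.0381). Among related genes, Slc16a12, a monocarboxylate transporter family member that carries creatine, was higher in the atria at both of its probe sets. It read 6.86, 6.90, 6.81 and 6.77 in the atria, against 4.72, 4.76, 4.59 and 4.59 in the ventricles, a difference of 2.17 (SE 0.07, adjusted p = 5e-09 from limma) or 4.5 fold. Its dimmer probe set was higher by 2.08, but the ventricular mean of 3.52 lay under 4, so the size of that difference is not set. Creatine transporters thus differed in direction. Ahcy, which clears the S-adenosylhomocysteine left by methylation steps such as that of Gamt, was 1.48 fold higher in the atria (7.47 ± 0.12 in the atria and 6.90 ± 0.08 in the ventricles, SD, n = 4 each, adjusted p = 0.00015 from limma). Mat2a, which makes the methyl donor, differed by -0.02 and did not pass. Of the 4 measured genes of creatine and methyl supply, the atria were higher at 2, lower at 1 and not called at 1.

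Of the adenylate kinases of the mitochondrial matrix, Ak4 was lower in the atria and Ak3 was not called at its brighter probe set. Ak3, which transfers phosphate between GTP and AMP in the matrix, was read by a pair of probe sets that disagreed. The brighter, 1368095_at, read 9.40, 9.24, 9.30 and 9.34 in the atria, against 9.29, 9.09, 9.42 and 9.27 in the ventricles, and the dimmer, 1383733_at, read 7.75, 7.90, 7.69 and 7.66 in the atria, against 7.43, 7.33, 7.55 and 7.57 in the ventricles. At the brighter probe set the arrays were mixed and the difference of 0.05 (95% interval from -0.11 to 0.22) had an adjusted p of 0.6. At the dimmer one all atrial arrays were higher, by 0.28 (SE 0.08, adjusted p = 0.017 from limma), a call that was lost at an adjusted p of 0.0512 with the replicate number as a block.

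Ak4, its relative in the same compartment, read 6.42, 6.27, 6.39 and 6.18 in the atria, against 7.82, 7.82, 7.80 and 7.72 in the ventricles. Every atrial array was at least 1.29 below every ventricular array. The difference was -1.47 (SE 0.07, adjusted p = 9.4e-08 from limma), which puts the atrial intensity at 36.0% of the ventricular one. A dim Ak4 probe set, with means of 3.05 in the atria and 3.18 in the ventricles, was not called (adjusted p = 0.25). The adenylate kinases Ak5 and Ak7 read under 4 in both tissues and were not called.

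Ampd3 had the largest difference of the members. It read 6.94, 6.93, 6.89 and 6.98 in the atria, against 8.11, 8.03, 8.11 and 7.96 in the ventricles. The gap between the tissues, 0.97 between the nearest arrays, was many times the spread within either. The means were 6.94 ± 0.04 in the atria and 8.05 ± 0.07 in the ventricles (SD, n = 4 each), a difference of -1.12 (SE 0.06, adjusted p = 2.6e-07 from limma). Of the other AMP deaminases, Ampd2, the isoform of most non-muscle cells, differed by -0.02 (95% interval from -0.15 to 0.12, adjusted p = 0.86), and Ampd1, the skeletal muscle isoform, had means under 4 in both tissues (3.70 in the atria and 3.84 in the ventricles) and was not called (adjusted p = 0.31).

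**Figure D3:**
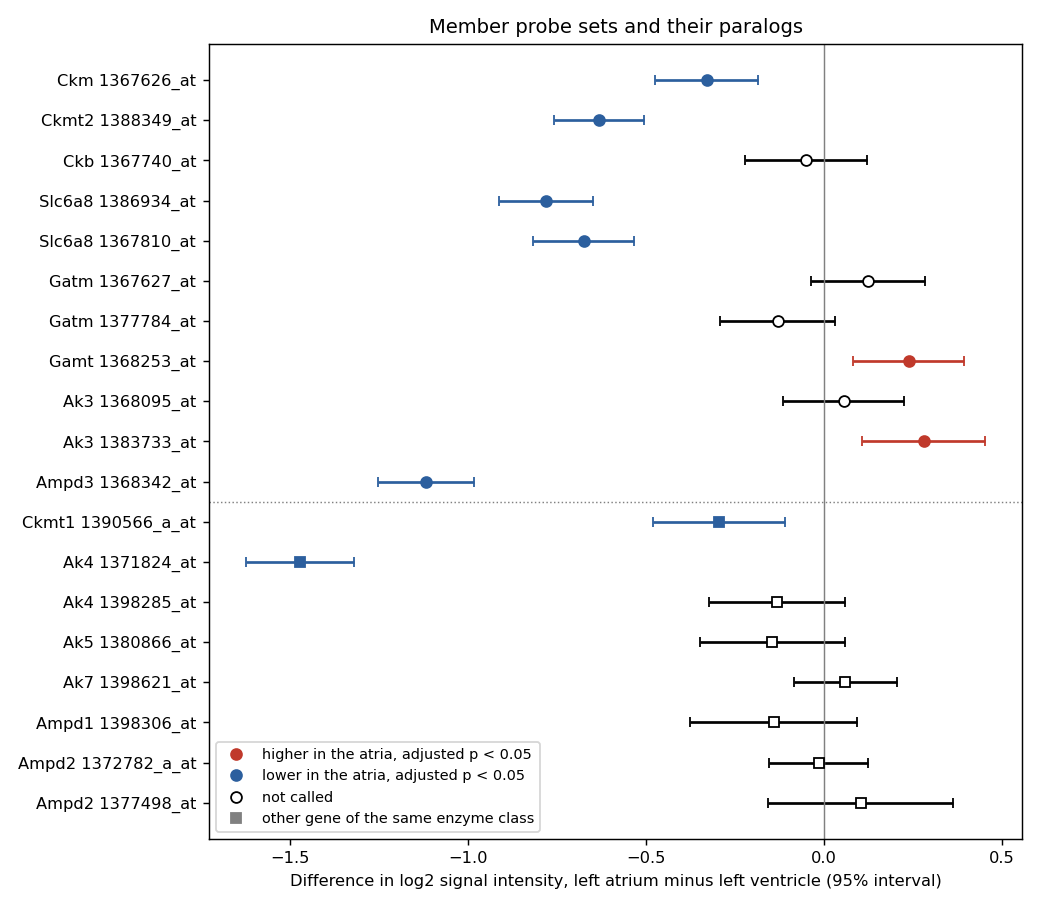
Difference in log2 signal intensity, left atrium minus left ventricle, with its 95% interval from limma, for the 11 member probe sets (circles) and for the other genes of the same enzyme classes (squares). Filled symbols passed an adjusted p of 0.05. Ampd3 at -1.12 and Ak4 1371824_at at -1.47 lie farthest to the left, and Ckb lies at -0.05.

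Further genes of the energy shuttles were called in both directions, at shares near those of the whole array. Of 53 measured genes on 5 lists, the atria were higher at 13, lower at 15 and not called at 25, where 22.5% of all genes were higher and 22.5% lower, and the median difference was -0.02, against -0.04 over all genes. Around AMP and adenosine, 3 of 14 genes were higher and 4 were lower. Those lower were Ada, which deaminates adenosine (5.54, 5.25, 5.40 and 5.68 in the atria, against 6.55, 6.68, 6.67 and 6.61 in the ventricles), Adss1, the muscle adenylosuccinate synthetase that turns IMP back towards AMP (9.80, 9.75, 9.81 and 9.76 against 10.69, 10.70, 10.66 and 10.69), Aprt, which salvages adenine into AMP, and Adsl. The differences were -1.16 for Ada (adjusted p = 3.4e-06), -0.91 for Adss1 (adjusted p = 4.6e-07) and -0.91 for Aprt (adjusted p = 9.7e-07, all from limma), and a second Adss1 probe set gave -0.69. So Ampd3 and Adss1, consecutive enzymes of the purine nucleotide cycle, were both lower in the atria, while Adss2, the non-muscle synthetase, was higher by 0.20 (adjusted p = 0.027 at its brighter probe set). Nt5c2, a cytosolic nucleotidase that acts on IMP, was higher in the atria by 1.15 (8.29 ± 0.23 in the atria and 7.14 ± 0.05 in the ventricles, SD, n = 4 each, adjusted p = 8.4e-06), and Slc29a1, an equilibrative nucleoside transporter, by 0.27.

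Among the 12 measured adenylate and nucleoside kinases, 4 were higher in the atria and 4 were lower. The nucleoside diphosphate kinases, which spread the phosphate of ATP to other nucleotides, were divided among higher, lower and not called. Nme3 (0.60, adjusted p = 3.1e-05), Nme1 (0.55, adjusted p = 0.00016) and Nme7 (0.37, adjusted p = 0.0071) were higher in the atria, and Nme2 was lower (-0.31, adjusted p = 0.0015, all from limma). Nme4 (-0.17, adjusted p = 0.23) and Nme6 (0.03, adjusted p = 0.68) were not called. Adk, the adenosine kinase, was lower, at -0.32, at its brighter probe set (adjusted p = 0.037), with overlap between the tissues, and differed by -0.12 at the other (adjusted p = 0.33).

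The adenine nucleotide translocators Slc25a4 and Slc25a5, which bring ATP out of mitochondria, were not called. Slc25a4, the heart and muscle form, averaged 12.97 ± 0.05 in the atria and 12.99 ± 0.03 in the ventricles (SD, n = 4 each, adjusted p = 0.74 from limma). These means lay at the upper end of the intensities, which limits how the size of the difference can be read. Slc25a5 differed by -0.06 (adjusted p = 0.52 from limma). Of the 12 genes of this list 2 were higher in the atria and 4 were lower. Slc25a24, an ATP-Mg/phosphate carrier, was higher by 0.62 (adjusted p = 7.6e-05) and Hk2, an inducible hexokinase that binds the outer membrane, by 0.57 (adjusted p = 0.0021). Lower in the atria were Hk1, the constitutive form, at -0.38 (adjusted p = 0.00053, with a second probe set not called), Ppif, cyclophilin D, at -0.44 (adjusted p = 0.0029), and the outer membrane channel Vdac1 at -0.35 (adjusted p = 0.001), although a second Vdac1 probe set differed by -0.07 (adjusted p = 0.45).

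Of the 3 γ subunits of AMP-activated protein kinase, which bind AMP and so sense the energy charge, Prkag2 was higher in the atria, Prkag3 was lower and Prkag1 was not called (means of 8.65 and 8.57 for atria and ventricles, a difference of 0.08, limma adjusted p = 0.39). Prkag2 read 8.38, 8.61, 8.47 and 8.32 in the atria, against 6.98, 7.22, 6.93 and 7.11 in the ventricles, and Prkag3, known from skeletal muscle, read 5.03, 4.97, 5.02 and 5.15 in the atria, against 6.64, 6.58, 6.30 and 6.41 in the ventricles. Neither pair of groups overlapped. The differences were 1.39 (SE 0.09, adjusted p = 6.7e-07) for Prkag2 and -1.44 (SE 0.08, adjusted p = 4.2e-07, both from limma) for Prkag3. A further Prkag2 probe set of like brightness gave a larger difference (adjusted p = 5.9e-07), and the 2 dimmer ones gave 0.27, with overlap between the tissues, and 0.18, which was not called. The catalytic subunit Prkaa1 was higher in the atria by 0.39 at its brightest probe set (adjusted p = 0.0013 from limma). Another Prkaa1 probe set gave 0.36, with overlap between the tissues (adjusted p = 0.024), and the dimmest gave 0.01 and was not called. Prkaa2 differed by -0.09 and was not called. Camkk2, an upstream kinase, was lower (adjusted p = 0.019) with both means under 4, so the size of its difference is not set. A dimmer Camkk2 probe set was not called (adjusted p = 0.2). Of the 11 genes of this list 2 were higher, 2 were lower and 7 were not called.

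**Figure D4:**
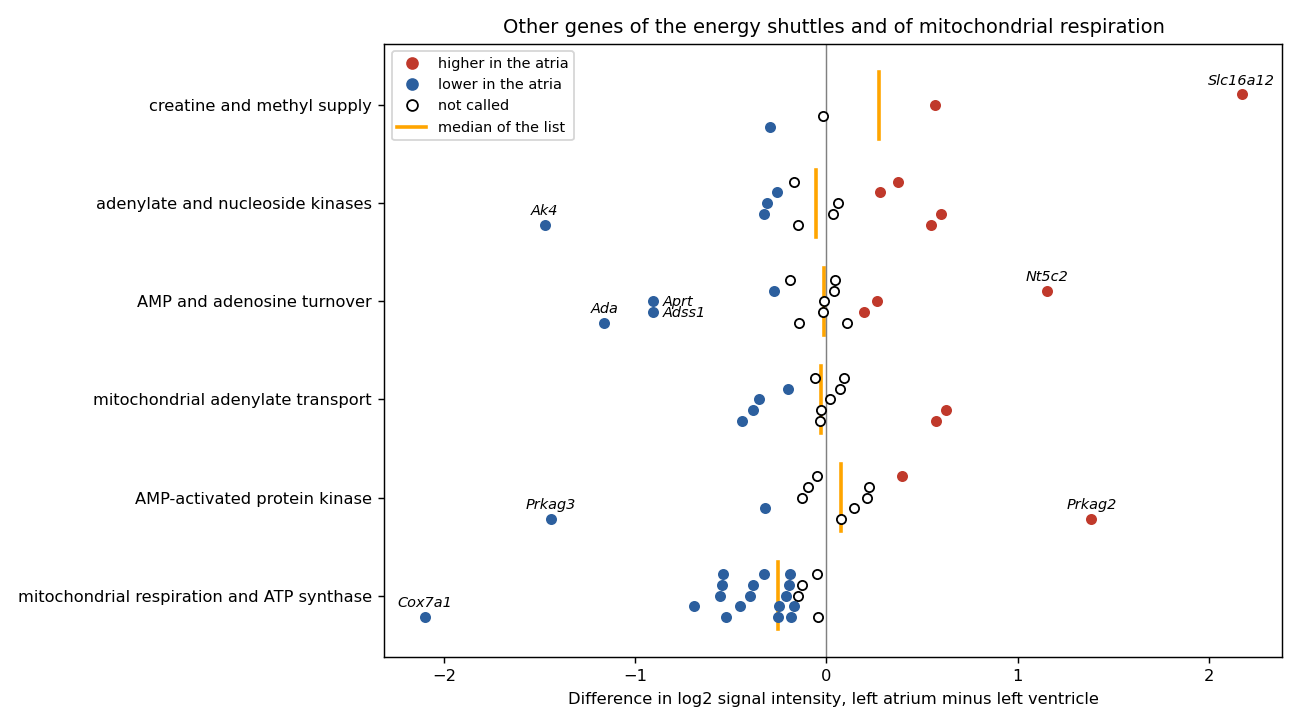
Difference in log2 signal intensity, left atrium minus left ventricle, for each measured gene of the 5 energy shuttle lists and of mitochondrial respiration, 1 point per gene at its brightest probe set. Filled points passed an adjusted p of 0.05, orange bars are list medians, and names are given beyond 0.8 in either direction. The lists are split between higher and lower genes except mitochondrial respiration, where 17 of 21 genes were lower in the atria.

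Genes of mitochondrial respiration and ATP synthase moved beside Ckmt2. Of 21 measured, the atria were lower at 17, higher at 0 and not called at 4, where 22.5% of all genes were lower and 22.5% higher. Their median difference was -0.25, and their summed intensity was 66274 to 67823 in the atria, against 80869 to 83377 in the ventricles. Only Cox7a1, a muscle subunit of cytochrome oxidase (-2.10, adjusted p = 1.8e-07 from limma), and Uqcrc1, a core subunit of complex III (-0.69, adjusted p = 5.8e-06), fell further than Ckmt2 at -0.63. Like Ckmt2, some of these genes read near the upper end of the intensities, which limits how the sizes of their differences can be compared. The transcript of citrate synthase (Cs) differed by -0.55 (adjusted p = 0.00011 from limma), and mitochondrial mass was not measured. The part of this broader mitochondrial difference in the Ckmt2 result was not tested.

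The genes closest in profile were sought among all 14217 genes by the root mean square difference of the log2 values over the 8 arrays, after each probe set was centred on its own mean. For Ckmt2 these were Fabp3, the fatty acid binding protein of heart muscle (0.036), Tufm, the mitochondrial elongation factor Tu (0.038), and Idh3b, a subunit of the isocitrate dehydrogenase of the citric acid cycle (0.0437). All were lower in the atria, with differences of -0.57, -0.67 and -0.62, near the -0.63 of Ckmt2. For Ckm they were the poly(A) binding protein Pabpc4 (0.0196), the chaperone partner Bag3 (0.0286) and folliculin, Flcn (0.0311), with differences from -0.31 to -0.34. For Ckb they were Oxtr (0.0235), Exoc1 (0.0355) and St6galnac5 (0.0412), none of which was called, and Oxtr and St6galnac5 had means under 4 in both tissues. Differences near those of Ckmt2, Ckm and Ckb follow from how these genes were picked and are no separate result. The likeness is a description over arrays that share 1 normalization.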

How the data were processed

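RNA of 4 left atrial and 4 left ventricular pools was hybridized by the authors to Affymetrix GeneChip rat genome arrays, 1 array per pool, with labelled cRNA made from 10 μg of total RNA. The deposited values are log2 signal intensities that the authors computed by RMA (background adjustment, quantile normalization and summary to 1 value per probe set). Its version is not given in the sources used here. RMA gives arrays a common distribution, so differences are relative to the whole array, and detection calls were not analysed here. The number of arrays limits the precision. The values held no control probe sets (names starting with AFFX).

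Members and lists were chosen with earlier results of these data known. Of 31042 probe sets, 20826 carried 1 gene symbol in the platform annotation, 436 several and 9780 none, and 20758 symbols were matched by gene ID to RefSeq (GRCr8). Lists used the probe set with the highest mean of each gene. The tissues were compared with limma 3.58.1 in R 4.3.3, and p-values were adjusted by the Benjamini-Hochberg method across the whole array. The SAM test named in the methods was run as an alternative. Other alternatives were trended and robust variances, other array scalings, omission of the dimmest 40% of probe sets, a replicate block, omission of arrays and the mean over a gene's probe sets. Pairs of members were compared by exact permutation tests (scipy 1.17.1). The procedure was tested on simulated data. Named genes were all member probe sets, up to 3 called genes per list and direction with the largest differences, genes of the same enzyme classes and the 3 closest profiles of Ckm, Ckmt2 and Ckb. Adsl, Mat2a, Slc25a4, Slc25a5, Prkaa2, Prkag1, Nme4, Nme6, Cox7a1, Uqcrc1, Cs, Myl2, Plin1 and Fabp4 were named in addition, after their values were seen. Figures were drawn with matplotlib 3.10.9.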

Additional observations from a re-analysis of the deposited data

Results flagged for a closer look

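Among 86 groups of 4 arrays, 4 held an array set apart by a gap above the 95% critical value of Dixon's test. Groups were, in each tissue, the 11 member probe sets, 4 pairs of members and other genes named by list or enzyme class. The closest profiles and the genes named in addition were not among them. At that value about 1 in 20 groups is set apart by chance, which for 86 groups is about as many as were found. What set each array apart was not tested. Ckm read 11.99 in atrial replicate 4, against 12.15 to 12.17 on the other atrial arrays. Pabpc4, Bag3 and Flcn, picked for a profile like that of Ckm, also had their lowest atrial value on that array. Ckb read 9.10 in atrial replicate 1, against 8.89 to 8.92 on the others, and its difference between the tissues was -0.10 without that array. Ckmt1 read 3.20 in atrial replicate 1, against 3.46 to 3.49, at the low end of the intensities. Hk2 read 5.49 in ventricular replicate 2, against 5.95 to 6.04 on the other ventricular arrays.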

How the results depend on the processing

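The difference of each member probe set was recomputed under up to 16 alternatives, 175 values in all. Of these, 168 kept their direction and their side of an adjusted p of 0.05, 5 lost the call (4 for Gamt and 1 for Ak3 1383733_at, given above) and 2 changed sign. Both were at Ak3 1368095_at, which was never called, with -0.008 under quantile normalization between arrays and -0.00338 without ventricular replicate 2 (adjusted p = 0.947 and 0.977), and up to 0.11 without ventricular replicate 3. Over the alternatives the difference ran from -0.65 to -0.61 for Ckmt2, from -0.35 to -0.28 for Ckm, from -0.84 to -0.75 for Slc6a8 1386934_at and from -1.20 to -1.10 for Ampd3. Calls among member probe sets numbered 6 to 7, among members at 1 probe set a gene 4 to 5, among the other energy shuttle genes 24 to 32, among the mitochondrial genes 13 to 19 and among all probe sets 10086 to 17193 (SAM), always within 1.5 times the counts above. At the study's thresholds, set on the limma adjusted p, the counts were 1 member probe set, 1 member gene, 8 other energy shuttle genes (3 higher and 5 lower in the atria), 1 mitochondrial gene and 1400 probe sets. The shifts of one member against another kept their direction throughout. From the mean over all probe sets of a gene, the shift of Gatm against Slc6a8 was 0.72 (exact permutation adjusted p = 0.0381). With any array left out the test cannot pass (smallest p 0.0571), and the 3 called shifts had values of 0.52 to 0.63 for Ckb against Ckmt2, 0.27 to 0.36 for Ckm against Ckmt2 and 0.84 to 0.94 for Gatm against Slc6a8. Without atrial replicates 1 and 4 together they were 0.51, 0.34 and 0.80 (exact permutation adjusted p = 0.178 each), a design of 2 against 4 arrays whose smallest p is 0.133. Same-numbered pools had residual correlations from -0.19 to 0.16, over 0.1 in 2 of 4. The highest of all were 0.278, between atrial replicate 4 and ventricular replicate 3, and 0.225, between atrial replicate 3 and ventricular replicate 4. No source used here says which pools shared animals, so whether the pools were paired is not settled. The block covers a pairing by replicate number only. A block by replicate number left 6 of 11 member probe sets and 10923 probe sets in all called, against 7 and 12034 without it, and the only member call it changed was that of Ak3 1383733_at. Probe sets near the low end (Gatm 1377784_at, Ckmt1, Ak5, Ak7 and Ampd1) and at the upper end (Ckm, Ckmt2, Slc25a4 and some of the mitochondrial genes) are where array intensity limits the measurement.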
